A study of Mus musculus with 6 samples.

Results

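Interferons act through a short relay of receptors, kinases and transcription factors, and 9 of the genes that encode it are described here in a mouse glioblastoma stem cell line depleted of Ggct. The genes are the receptor chains Ifnar1, Ifnar2, Ifngr1 and Ifngr2, the kinases Jak1 and Tyk2, and the transcription factors Stat2, Irf9 and Irf1. They were taken by name: a probe belonged to the set when its transcript accession matched one of these symbols in a RefSeq gene table. This gave 15 of the 56593 probes read. Ifnar1 had 3 probes, Ifnar2, Stat2, Irf9 and Irf1 had 2 each, and the other 4 genes had 1 each. All 9 genes had at least 1 probe well above background on all 6 arrays, and 14 of the 15 probes passed the filter on dim probes, which required 3 of the 6 arrays.

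The 6 samples were total RNA, each labelled with Cy3 and hybridised to a 1-colour Agilent array. In the knockdown group (3 arrays) the cells carried a lentiviral shRNA against Ggct, which encodes gamma-glutamylcyclotransferase, an enzyme of glutathione breakdown. In the control group (3 arrays) the same line carried a lentiviral non-target shRNA, so both groups had been transduced. The line was derived from glioblastomas that a transposon had induced in mice, and it was kept as neurospheres, without serum, with the growth factors EGF and bFGF. No interferon treatment is named for either group, and the titles name 1 hairpin against Ggct, so loss of Ggct and any off-target action of the hairpin cannot be told apart. Each of 3 dates in the titles was shared by 1 knockdown and 1 control array, which gave 3 pairs.

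Type I interferons bind the receptor pair Ifnar1 and Ifnar2, whose kinases Tyk2 and Jak1 phosphorylate STAT proteins. Stat2 then joins another STAT and Irf9 in a complex that binds interferon-stimulated response elements in the promoters of antiviral genes. Interferon gamma, the type II interferon, binds Ifngr1, and Ifngr2 is recruited as the signalling chain. STAT dimers then bind gamma-activated sites, among them a well-known one in the promoter of Irf1, a transcription factor that activates genes of antigen presentation and guanylate-binding proteins. Neural and glial cells are known to carry both receptors.

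Promoter sequences of 4 members are shown because the response elements of the pathway could be looked for in them: the 2 members whose signal passed the test below, Irf1 and Ifngr2, and 2 that hold an element and did not pass, Stat2 and Ifnar2. Each is the 250 bases before the start of the gene on its plus strand, from RefSeq with build GRCm38.p6, at chr11:53769764-53770013 (Irf1), chr16:91546809-91547058 (Ifngr2), chr10:128270248-128270497 (Stat2) and chr16:91372533-91372782 (Ifnar2). Capitals mark a match to the core of an interferon-stimulated response element, spelled GAAA, then 2 bases of any kind, then GAAA, or to a gamma-activated site, spelled TTCNNNGAA. Both were searched on both strands, with no match overlapping another.
Irf1: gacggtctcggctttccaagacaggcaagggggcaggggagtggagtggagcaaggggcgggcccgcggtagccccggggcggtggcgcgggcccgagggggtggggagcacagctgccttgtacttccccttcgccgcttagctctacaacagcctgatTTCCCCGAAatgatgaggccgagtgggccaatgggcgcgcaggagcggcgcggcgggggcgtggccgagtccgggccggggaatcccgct
Ifngr2: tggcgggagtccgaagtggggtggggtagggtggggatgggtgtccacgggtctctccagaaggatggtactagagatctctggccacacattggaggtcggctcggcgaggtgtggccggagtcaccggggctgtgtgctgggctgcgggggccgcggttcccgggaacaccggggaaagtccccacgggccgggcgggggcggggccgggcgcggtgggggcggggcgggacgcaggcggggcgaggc
Stat2: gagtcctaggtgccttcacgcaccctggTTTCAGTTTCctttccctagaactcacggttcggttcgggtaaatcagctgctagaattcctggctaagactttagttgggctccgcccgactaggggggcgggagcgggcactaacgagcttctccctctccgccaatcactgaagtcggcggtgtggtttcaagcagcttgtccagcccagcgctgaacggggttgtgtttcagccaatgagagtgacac
Ifnar2: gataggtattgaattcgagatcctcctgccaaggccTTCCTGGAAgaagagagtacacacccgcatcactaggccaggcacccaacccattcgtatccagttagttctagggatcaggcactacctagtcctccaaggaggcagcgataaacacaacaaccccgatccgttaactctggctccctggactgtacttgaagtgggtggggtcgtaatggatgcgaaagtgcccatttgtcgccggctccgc

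The Irf1 promoter held the gamma-activated site TTCCCCGAA, 90 to 82 bases before the start. The Ifnar2 promoter held another, TTCCTGGAA, 214 to 206 bases before its start. The Stat2 promoter held the response element core on its other strand, read as TTTCAGTTTC at 222 to 213 bases before the start. The window of Ifngr2 held neither motif, nor did those of Ifnar1, Ifngr1, Jak1, Tyk2 and Irf9, nor a second window listed for Irf1. Of the 32851 promoters in the table, 7.02% held TTCNNNGAA and 2.98% held the response element core. A match is a description of the letters, and their absence says nothing of binding elsewhere.

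Values below are log2 signals, that is log2 of the background-corrected intensity of a probe less the 75th percentile of that array's log2 values. A log2 fold change is the knockdown mean minus the control mean, given with its standard error (SE). A gene passed when its adjusted p in limma, with Benjamini-Hochberg adjustment over all 14151 genes tested, was below 0.05. Ggct itself had log2 signals of 0.22, 0.91 and 0.70 in knockdown cells, against 3.32, 3.72 and 3.70 in control cells. It was at 12.7% of control (limma adjusted p = 0.00314).

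Of the 9 members, 2 rose and 0 fell, and 7 did not pass. Over all genes 7.41% passed in either direction, 4.57% higher and 2.84% lower. At an unadjusted limma p below 0.05 the members counted 3 higher and 0 lower, where 24.8% of all genes did, 14.1% higher and 10.7% lower. Counts of this kind are read against those shares. The changes ran from -0.36 to 0.87 with a median of 0.16, beside a median of 0.02 over all genes. The rises were Irf1 and Ifngr2, and Irf9 lay next in size. The type I receptor chains, Ifngr1, both kinases and Stat2 did not pass. In 5 of the 9 members the groups did not overlap, 4 with knockdown higher and 1 with knockdown lower, and over all genes the groups did not overlap in 32.4%, with knockdown higher in 17.8% and lower in 14.6%. In all 3 pairs 4 members were higher in knockdown and 2 were lower, against 26.3% and 22.4% of all genes. In RNA of a whole culture, a higher level per cell and a larger share of expressing cells cannot be told apart.

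**Figure D1:**
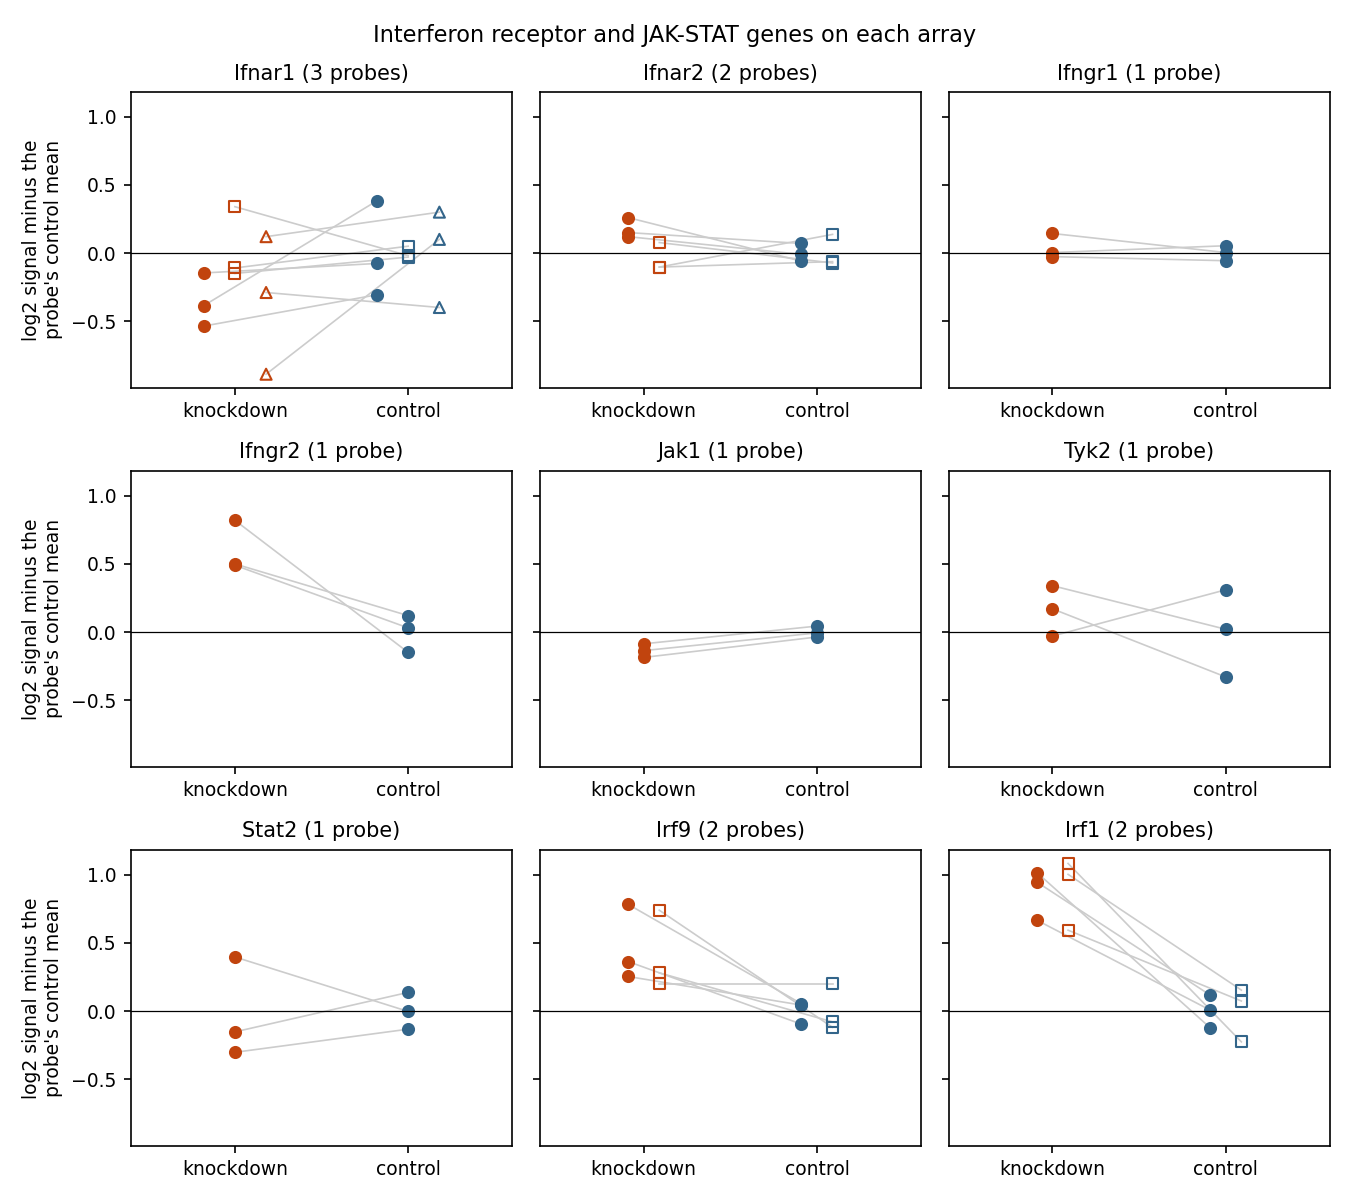
Log2 signal of every member probe above background on each array, set against the mean of that probe in control (y axis, log2 units), with knockdown at the left and control at the right of each panel and grey lines joining arrays of a pair. Filled points are the probe tested for the gene and open points its other probes. All knockdown points of Irf1 and Ifngr2 lie above all control points, and those of Ifngr1 and Stat2 overlap.

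Irf1, the transcription factor at the end of the gamma relay, changed most among the members. Its brighter probe had log2 signals of 4.52, 4.17 and 4.45 in knockdown cells, against 3.38, 3.51 and 3.62 in control cells. The lowest knockdown array lay above the highest control array. Irf1 rose 1.83-fold, with a 95% interval from 1.46-fold to 2.29-fold. On the log2 scale the change was 0.87 ± 0.14 (SE), at an adjusted p of 0.0171 in limma. The pair differences were 1.13, 0.66 and 0.83, and Irf1 passed with the pair as a block (limma adjusted p = 0.0436). Before scaling, its intensities were 17486, 9605 and 13086 in knockdown cells and 5621, 6039 and 10665 in control cells. These unscaled values overlapped, and control replicate 3, the highest control value, was also the brightest array, with a 75th percentile of 867.0 intensity units against 531.5 to 762.9 on the other 5 arrays.

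The other Irf1 probe was much dimmer, with log2 signals of -1.86, -1.45 and -1.37 in knockdown cells against -2.38, -2.30 and -2.68 in control cells. Its groups did not overlap either. Its log2 fold change was 0.90 ± 0.18 (SE), close to that of the brighter probe. Fitted over all 31804 probes, of which 1.75% passed and 1.16% were higher, the brighter probe passed (limma adjusted p = 0.0464) and the dimmer one did not (limma adjusted p = 0.0618), and no other member probe passed. With normexp background correction the dimmer probe was at 0.53. Without knockdown replicate 3, control replicate 1 or control replicate 2, Irf1 kept a log2 fold change of 0.81 to 0.87 and did not pass (limma adjusted p = 0.0723, 0.0753 and 0.0732). Without those same arrays 21, 14 and 42 genes passed in all, against 1048 with all 6 arrays.

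Ifngr2, the signalling chain of the gamma receptor, rose 1.51-fold. Its log2 signals were 1.82, 1.50 and 1.49 in knockdown cells, against 0.85, 1.12 and 1.03 in control cells. The groups did not overlap, and knockdown replicate 1 was the highest. In log2 units this was 0.60 ± 0.14 (SE), at an adjusted p of 0.0478 in limma. The pairs differed by 0.97, 0.38 and 0.45, and the 95% interval ran from 1.20-fold to 1.91-fold. That call lay near the threshold. It was lost with the replicate block (limma adjusted p = 0.105), without a filter on dim probes (0.118) and when any 1 array was left out (0.0779 to 0.154), at log2 fold changes of 0.49 to 0.66.

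Ifngr1, the chain that binds interferon gamma, gave log2 signals of 3.13, 2.96 and 2.99 in knockdown cells and 2.99, 2.93 and 3.04 in control cells. The groups overlapped. The change of 0.04 ± 0.11 log2 units (SE) had an adjusted p of 0.877 in limma and a 95% interval from 0.856 to 1.23 times control. Ifngr2 relative to Ifngr1 within each array was at -1.31, -1.46 and -1.50 log2 units in knockdown cells and at -2.13, -1.81 and -2.00 in control cells, a difference of 0.56.

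Neither chain of the type I receptor passed. Ifnar1 had log2 signals of 1.67, 1.52 and 1.91 on its brightest probe in knockdown cells, against 2.44, 1.75 and 1.98 in control cells. The groups overlapped, and the values were lower in knockdown in all 3 pairs, by -0.77, -0.23 and -0.07. The change came to -0.36 ± 0.20 log2 units (SE), or 78.0% of control, at an adjusted p of 0.316 in limma. The 95% interval ran from 0.567 to 1.07 times control. The other 2 Ifnar1 probes were at -0.36 and 0.03, so the probes of this gene disagreed, and the groups overlapped on each. Of these 2, the probe at -0.36 was dim, at intensities of 44.8 to 71.5. It was at -0.09 without knockdown replicate 1. The probe at 0.03 was brighter, at intensities of 674 to 1346.

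Ifnar2, the chain that carries most of the STAT docking sites, had log2 signals of 2.49, 2.38 and 2.35 in knockdown cells and 2.17, 2.30 and 2.22 in control cells. The groups did not overlap, but the shift was small, at 0.18 ± 0.11 log2 units (SE) with an adjusted p of 0.384 in limma, and its 95% interval ran from 0.943 to 1.35 times control. The other Ifnar2 probe was at -0.04 and its groups overlapped. Ifnar2, Il10rb, Ifnar1 and Ifngr2 are 4 neighbouring coding genes on chromosome 16 in GRCm38, all encoding class II cytokine receptor chains. Their log2 fold changes in that order were 0.18, -0.41, -0.36 and 0.60. Of these only Ifngr2 passed, and whether the neighbours share a direction was not tested. Il10rb, a chain of the interleukin-10 receptor, had a limma adjusted p of 0.135.

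**Figure D2:**
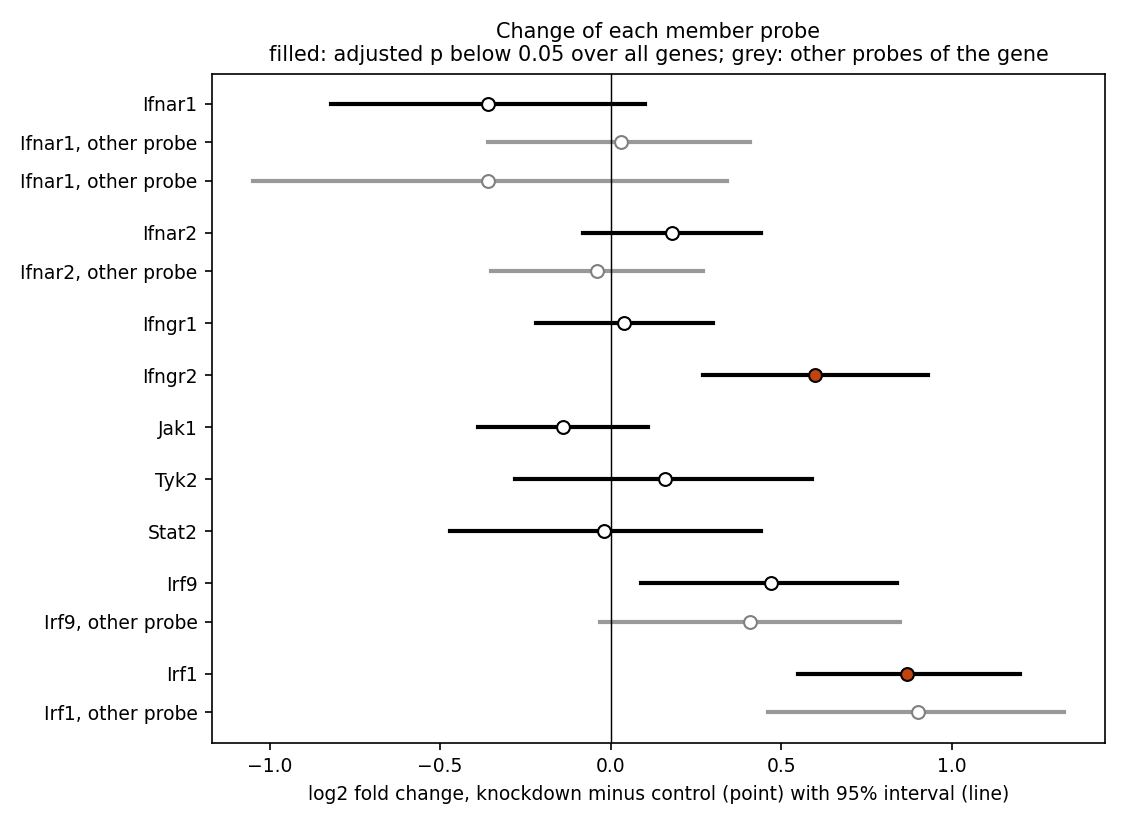
Log2 fold change of knockdown minus control (x axis) for each member probe, as a point with its 95% interval. Black marks the probe tested for the gene, grey its other probes and a filled point a gene past the threshold. Irf1 at 0.87 and Ifngr2 at 0.60 are filled, and the intervals of Ifnar1, Ifnar2, Ifngr1, Jak1, Tyk2 and Stat2 include 0.

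The 2 kinases did not pass. Jak1, which serves both receptors, had log2 signals of 3.91, 3.96 and 3.86 in knockdown cells and 4.04, 4.09 and 4.01 in control cells. These were the tightest groups in the set, with SDs of 0.05 and 0.04, and they did not overlap. The shift was small, at -0.14 ± 0.11 log2 units (SE) with an adjusted p of 0.478 in limma, and the 95% interval ran from 0.763 to 1.08 times control. The pair differences were -0.14, -0.13 and -0.15. Tyk2, the kinase of Ifnar1, had log2 signals of -1.13, -0.76 and -0.93 in knockdown cells and -0.79, -1.08 and -1.43 in control cells. The groups overlapped and the pairs disagreed in direction, at -0.35, 0.32 and 0.49. The change of 0.16 ± 0.19 log2 units (SE) had an adjusted p of 0.668 in limma and a 95% interval from 0.824 to 1.50 times control.

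Stat2 and Irf9, which work in 1 complex, gave different values. Stat2 had log2 signals of 1.36, 0.66 and 0.81 in knockdown cells and 0.96, 0.83 and 1.10 in control cells. The knockdown values spread around the control values, with knockdown replicate 1 the highest of the 6 arrays. The change of -0.02 ± 0.19 log2 units (SE) had an adjusted p of 0.973 in limma and a 95% interval from 0.723 to 1.35 times control. Its sign turned with normexp (0.01). A second Stat2 probe was not well above background on any array and was not tested.

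Irf9, the DNA-binding part of the complex, had log2 signals of 0.95, 0.53 and 0.42 in knockdown cells and 0.22, 0.07 and 0.21 in control cells. The groups did not overlap, and knockdown replicate 1 was the highest. The log2 fold change was 0.47 ± 0.16 (SE), or 1.38-fold, with an unadjusted p of 0.0210 and an adjusted p of 0.123 in limma. It was higher in knockdown in all 3 pairs, by 0.73, 0.46 and 0.21. The other Irf9 probe was at 0.41 ± 0.19 (SE). Irf9 thus did not pass, and without knockdown replicate 1 it was at 0.31.

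Ratios within an array take out whatever scales an array as a whole. Irf9 relative to Stat2 was at -0.41, -0.13 and -0.39 log2 units in knockdown cells and at -0.74, -0.76 and -0.89 in control cells. The groups did not overlap and differed by 0.48. Ifnar2 relative to Ifnar1 was at 0.82, 0.86 and 0.44 in knockdown cells and at -0.27, 0.54 and 0.24 in control cells, which overlapped. This ratio differed by 0.53 between groups on the probe tested for each gene, and by 0.30 with the mean of probes. The other Ifnar2 probe had changed by -0.04, and the other Ifnar1 probes by -0.36 and 0.03. The ratios of Irf9 to Stat2, Ifnar2 to Ifnar1 and Ifngr2 to Ifngr1 were chosen after the members' values were seen. In two-sided exact permutation tests of 3 against 3 arrays, p was 0.10 for Ifngr2 to Ifngr1 and for Irf9 to Stat2, the smallest the design allows, and 0.20 for Ifnar2 to Ifnar1. Adjusted over the 3 ratios these were 0.15, 0.15 and 0.20, so none could pass.

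**Figure D3:**
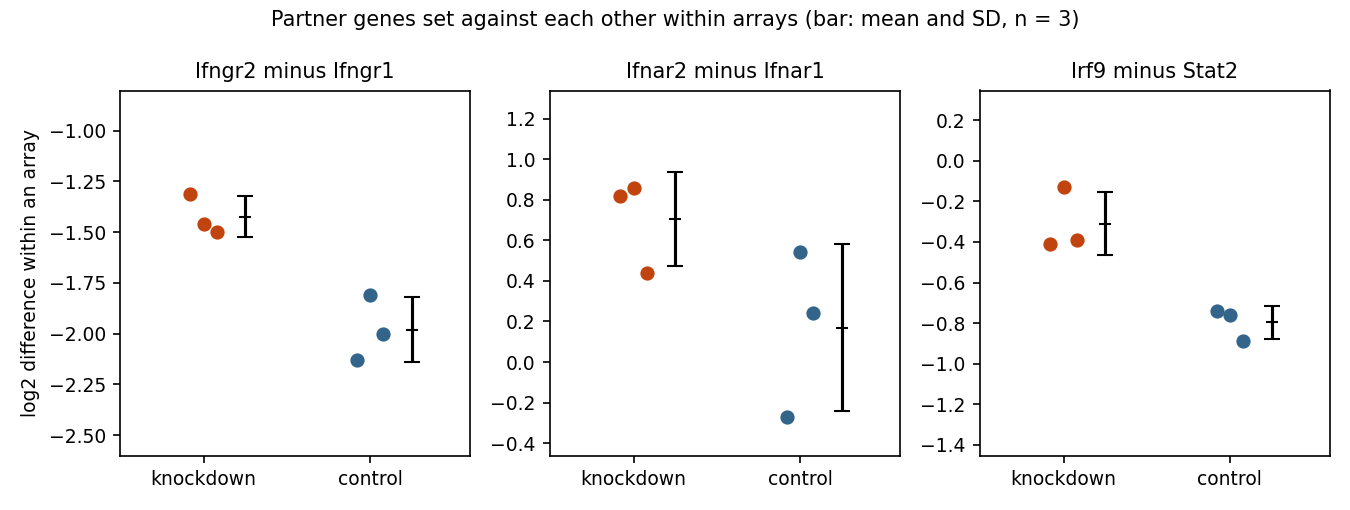
Log2 difference between partner genes within each array (y axis, log2 units) for knockdown and control, with the mean and SD of 3 arrays as a bar beside the points. The groups are apart for Ifngr2 minus Ifngr1 and for Irf9 minus Stat2, and overlap for Ifnar2 minus Ifnar1.

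Among the wider pathway, the genes for the ligands did not pass. Of 19 interferon genes listed, 16 had a probe and 7 were tested, of which 0 rose and 0 fell in limma, with 1 higher and 0 lower at an unadjusted p below 0.05, against 24.8% of all genes. The median was 0.15. All 7 were dim, at intensities of 20.5 to 70.6, where the 75th percentiles of the arrays were 531.5 to 867.0. They lay 0.59 to 2.06 log2 units above the lowest signal above background on each array. Ifnb1 and Ifng, which encode interferon beta and gamma, were not well above background on any array. The alpha interferon genes are close copies of each other, so their probes can share signal.

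Of 7 other JAK kinases and STATs tested, 1 rose and 0 fell, where 4.57% of all genes rose and 2.84% fell. The rise was Stat6, the STAT of interleukin-4 signalling, at 0.63 ± 0.15 (SE; limma adjusted p = 0.0477), which was above background on 2 of 3 control arrays. It was at 0.08 with normexp (limma adjusted p = 0.833), and did not pass with the block (0.0613). Of 5 other interferon regulatory factors tested, 1 rose and 0 fell, against the same shares of all genes. Irf7, which amplifies type I interferon production, had log2 signals of -0.19, -0.83 and -0.58 in knockdown cells, against -1.39, -1.54 and -1.78 in control cells. It rose 2.05-fold (limma adjusted p = 0.0244, or 0.0373 with the block), and a second probe was at 0.78. Without the filter on dim probes Irf7 did not pass (limma adjusted p = 0.0577).

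Of 22 other receptor chains that signal through JAK kinases, 0 rose and 0 fell in limma, and the median was -0.03. At an unadjusted p below 0.05 there were 5 higher and 3 lower, against 14.1% and 10.7% of all genes. Among 18 brakes on the pathway there were 2 rises and 0 falls, against 4.57% and 2.84% of all genes, and the median was -0.01. At an unadjusted p below 0.05 the brakes counted 3 higher and 3 lower. With the mean of probes they counted 2 rises and 1 fall. Usp18, which binds Ifnar2 and damps type I signalling, rose 2.56-fold (limma adjusted p = 0.0308), and Cish, a STAT-induced inhibitor, rose 1.74-fold (limma adjusted p = 0.0440). Neither passed with the block (limma adjusted p = 0.0538 and 0.0596) or with normexp, where Usp18 was at 0.47 and Cish at 0.41. Usp18 was above background on 2 of the 3 control arrays.

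Most genes tested in the 2 lists of interferon targets rose, and these were also seen in the earlier results that chose the lists. Whether the relay, or 1 arm of it, had a part in these rises was not tested. Of 23 type I interferon targets listed, 21 had a probe and 19 were tested. Mx1, Mx2, Oas1a and Oas2 were not tested. Of the 19, 12 rose and 0 fell, against 4.57% and 2.84% of all genes. The median was 1.32, beside 0.02 over all genes. Xaf1, a pro-apoptotic target, rose 4.24-fold, Zbp1, a sensor of Z-form nucleic acid, 4.23-fold, Ifit3 2.92-fold and Ifit3b 2.49-fold, with limma adjusted p values from 0.00331 to 0.0121. With normexp, Xaf1 was at 0.94 and Ifit3b at 0.71 log2 units, against 2.08 and 1.32 without it, and both passed. A second Xaf1 probe was at -0.09, so its probes disagreed, and a second Zbp1 probe was at 2.04. Ifit3 and Ifit3b are close copies whose probes can share signal. All 20 interferon gamma and Irf1 targets listed had a probe, and 14 were tested. Ciita, Cxcl9, Gbp5, Iigp1, Psmb8 and Tap1 did not pass the filter on dim probes. Of the 14, 11 rose and 0 fell, against the same shares of all genes, and the median was 1.12. Gbp2, a guanylate-binding protein, rose 4.01-fold, Igtp, an immunity-related GTPase, 2.85-fold, Casp1, the inflammasome protease, 2.29-fold and Psmb10, an immunoproteasome subunit, 1.69-fold, with limma adjusted p values from 0.0134 to 0.0169. Gbp2 was at 1.15 log2 units with normexp, against 2.01 without it, and passed. Psmb9, another of the 11 and also an immunoproteasome subunit, was not well above background on any control array. It passed the filter through its 3 knockdown arrays alone. Set against the lowest signal above background on each control array, its knockdown mean was 1.49-fold higher, a bound without an interval. Its limma adjusted p of 0.0284 rests on control values below detection. With only probes above background on all 6 arrays, 10 gamma targets rose.

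Irf1 thus stood at 1.83-fold and Ifngr2 at 1.51-fold in the same comparison in which the median target lay above 1 log2 unit. The 2 target lists counted 11 and 11 rises without knockdown replicate 1, and 13 and 11 with the replicate block. Without knockdown replicate 3, control replicate 1 or control replicate 2 they counted 1, 1 and 3 type I targets and 0 gamma targets each, in fits where few genes passed at all. The gamma targets counted 7 without control replicate 3, and also 7 without the filter on dim probes.

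**Figure D4:**
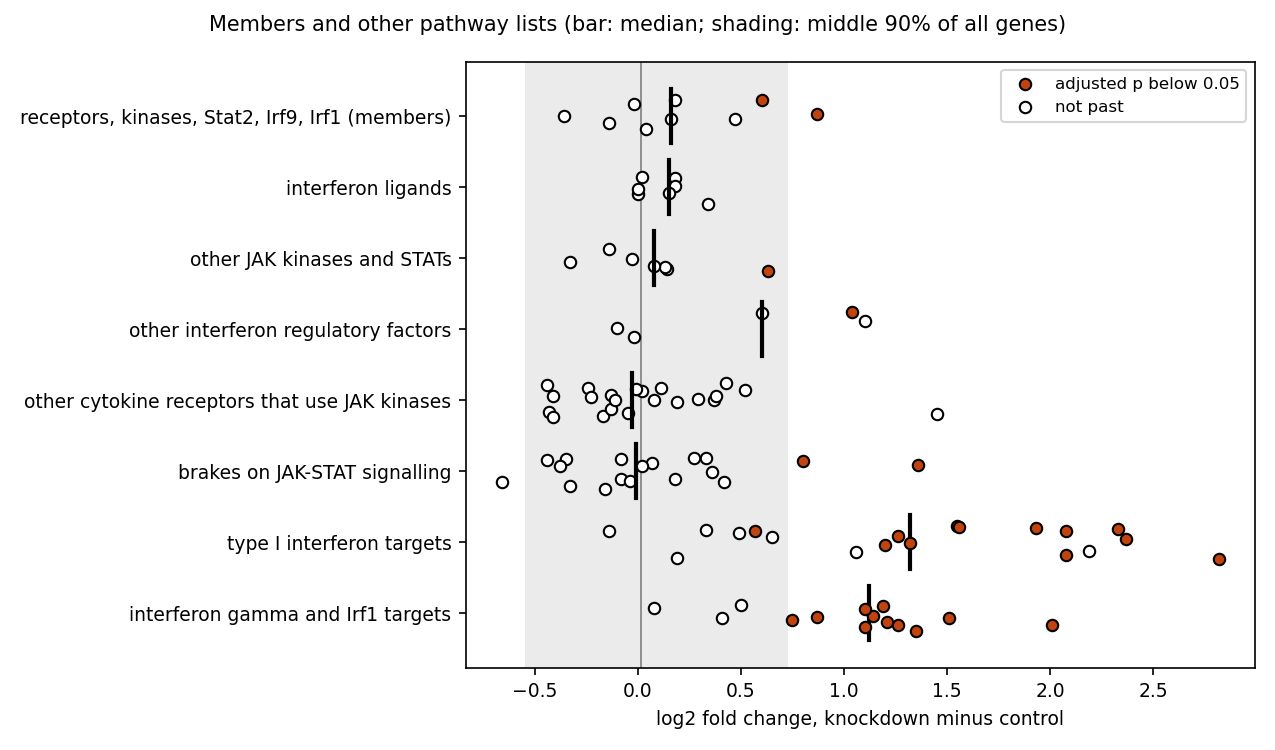
Log2 fold change of knockdown minus control (x axis) for the members and 7 other lists, with 1 point per gene, filled where the gene passed, a bar at each list's median, grey shading over the middle 90% of all genes and a grey line at their median. The medians are 0.16 for the members, 1.32 for type I interferon targets and 1.12 for interferon gamma and Irf1 targets.

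The genes whose pattern over the 6 arrays lay closest to Irf1, by root mean square difference after each gene's own mean was taken out, were Tspyl4 (0.030 log2 units), Zfp607b (0.042) and Hes6 (0.057). For Ifngr2 they were Acyp2 (0.042), Serpinh1 (0.053) and Taf7 (0.053). With 6 arrays in 2 groups this likeness is mostly a like difference between the groups. None of these 6 genes is in the lists above.

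As a check of the labelled cell type, 6 of 8 neural stem and glioma markers were well above background on all arrays. Among them were Nes, Sox2 and Fabp7, and Olig2 was above background on none. Of the 6 tested, 0 passed. Nes, Sox2 and Msi1 were at 64.1%, 79.3% and 83.3% of control, each lower in all 3 pairs. Prom1 was 2.05-fold higher, and higher in all 3 pairs. Groups did not overlap for these markers, and overlapped for Fabp7 and Vim. Of 10 microglia and macrophage markers, 5 were above background on all arrays, and Aif1, C1qa, Cx3cr1 and P2ry12 on none. Their summed linear signal, scaled to each array's 75th percentile, was 13.3 to 15.7 in knockdown cells and 12.3 to 18.5 in control cells. Itgam, by far the brightest of these markers, had mean log2 signals of 3.43 in knockdown and 3.60 in control cells, so the sum mostly followed Itgam. In that list 1 of 5 tested genes rose, Tmem119 (2.25-fold; limma adjusted p = 0.0207). The T cell markers summed to 2.12 to 2.64 in knockdown cells and 2.19 to 2.59 in control cells, with Cd2, Cd3g and Cd8a above background on no array, and 0 of 3 tested passed. The endothelial markers summed to 3.36 to 4.55 and 7.00 to 8.68 in knockdown and control cells, with Cldn5 and Kdr above background on no array, and 1 of 3 tested passed. That was Flt1, by far the brightest of the 3, at 49.9% of control (limma adjusted p = 0.0187, or 0.0527 with the block). Cdh5 was at 0.15 and Pecam1 at -0.06 log2 units (limma adjusted p = 0.809 and 0.848). The fibroblast and pericyte markers summed to 16.5 to 24.7 and 16.4 to 25.6 in knockdown and control cells. Acta2, by far the brightest, had mean log2 signals of 4.28 in knockdown and 4.39 in control cells, so that sum mostly followed Acta2. Lum and Rgs5 were above background on no array, and 0 of 4 tested markers passed. With the block 1 of them passed, Dcn, at 1.79-fold (limma adjusted p = 0.0624, or 0.0375 with the block). The part of these markers in the rise of Irf1 and Ifngr2 was not tested.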

How the data were processed

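Expression was measured on 6 Agilent 1-colour arrays, 3 knockdown and 3 control, grouped by their titles. Per the file headers, the deposited scanner files hold spot intensity values, background-corrected by Agilent Feature Extraction 11.0.1.1. The deposited value table holds log2 values. Each column differed from log2 of the processed intensity by 1 constant within 0.01, with its 75th percentile at about 0, no gene centring and column medians from -4.47 to -4.22. All arrays lay on 1 slide and had 1 scan day, so neither could act as a batch. Arrays had 54.47% to 56.83% of probes well above background and 0 saturated probes, and their number limits the precision.

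Outlier spots were left out, repeat spots were averaged on the log2 scale, and each array was scaled to its 75th percentile. Unversioned accessions were looked up in a RefSeq table of GRCm38, which named 32994 probes, or 58.3%. The table served for names and gene order. Probes above background on at least 3 of 6 arrays were kept, with the probe of highest mean per gene. Groups were compared with limma 3.58.1 (lmFit, eBayes, two-sided, no block) in R 4.3.3. Python 3.11.15 did the rest. For a fold bound, each array of the dim group took the higher of its probe value and its lowest signal above background. Steps were tested on simulated data with 200 of 14151 genes changed. At the same threshold 16.2% of 1.5-fold and 79.3% of 2-fold changes were recovered, so a member that did not pass may still have changed. More genes passed in the real data, 1048, so these shares need not carry over.

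The dates pair the arrays, and deviations from group means correlated at -0.02, 0.55 and -0.20 within pairs 1, 2 and 3. On the first principal component knockdown replicate 1 was at 46.6, with 9.1 and 15.4 for knockdown replicates 2 and 3 and -30.5 to -15.0 for controls. The labels do not say that samples were separate cultures, so p-values measure the spread between arrays, which may be partly technical. The members and lists were chosen with earlier results of these data known. The text names Ggct, all members, up to 4 genes per list by adjusted p, and the 3 genes most like each member past the threshold. Alternatives were normexp on the median spot signal (offset 50; the planned mean signal was not used here), quantile scaling, another percentile set, the deposited table, other filters, the mean of probes, the replicate block and left-out arrays or pairs.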

Additional observations from a re-analysis of the deposited data

How the results depend on the processing

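Irf1 passed under all 8 alternatives other than leaving out arrays, at log2 fold changes of 0.86 to 0.89, and Ifngr2 under 6 of them. Members past the threshold were 1, Irf1, without a filter on dim probes and with the replicate block, and 0 to 1 when an array or a pair was left out. In the fit over probes 0 member probes passed without a filter, with the replicate block or with an array or pair left out, and 4 had an unadjusted p below 0.05 in each of the first 2 fits. Over all genes 357 passed without a filter, where more genes are tested, 558 with the replicate block, and 0 to 840 with an array or pair left out. The count of 0 was without the third pair, where 2796 genes had an unadjusted limma p below 0.05. Other pathway genes past the threshold were 27, or 17 without a filter and 0 to 26 with arrays left out. For these counts the cause was not tested. Stat2, at -0.02, turned to 0.01 with normexp and 0.0030 with the percentile taken over probes detected on every array, and ran from -0.22 to 0.13 with arrays left out. Ifngr1 ran from -0.01 to 0.08, Tyk2 from -0.01 to 0.41, the dimmer Ifnar2 probe from -0.14 to 0.06 and 1 other Ifnar1 probe from -0.14 to 0.12, so these had no settled sign. Irf9 stayed above 0, at 0.31 to 0.60, and passed under none. The slide could not serve as a block, since there was 1.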

Other observations

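Lifr, the receptor chain for leukaemia inhibitory factor, had the largest log2 fold change among the other JAK-coupled receptors, and it was singled out after its values were seen. Its log2 signals were -2.41, -3.64 and -4.24 in knockdown cells and -4.22, -5.11 and -5.31 in control cells, where 2 of 3 arrays were above background. The groups overlapped and every pair was higher in knockdown. Its log2 fold change was 1.45 ± 0.47 (SE), with a limma adjusted p of 0.107 without the block and 0.0296 with it.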
